A study of Mus musculus with 12 samples.

Results

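CTCF occupancy in the lung of mouse embryos at E18.5 was compared between the wild type and the homozygous Ctcf mutation R567W (the Ctcf R567W/R567W genotype). Each lung list comes from 1 CTCF ChIP-seq library, and it gives the regions in which the authors' peak caller found more reads than in a control. Regions with the same chromosome, start and end were counted once, and a region was called shared where at least 1 bp of it lay in a region of the other list. The wild-type lung list held 44386 regions and the mutant lung list held 32498, out of 183882 regions in the 6 lists of the series. The series has 12 samples, namely a CTCF ChIP library and an input library for each of brain, heart and lung in both genotypes. Both groups had the C57BL/6 background per the labels (C57BL/6 N per the study's methods), the same age and the same antibody target. The mutation was made by CRISPR/Cas9 editing in fertilized eggs, and homozygous embryos came from crosses of heterozygous mice. It was therefore inherited and present in all cells of the embryo. Whole lung was used without separating cell types. How many embryos gave each library is not stated in the sources used here. With 1 library per genotype there is no replicate check, so no test between genotypes was made, and every interval below covers counting error only.

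CTCF is a DNA-binding protein with a row of zinc fingers. Its central zinc fingers bind the core motif that nearly all strong CTCF sites carry, and its last zinc fingers, among them the finger that holds residue R567, contact an upstream motif that some sites carry on the 5′ side of the core. Bound CTCF stops cohesin as it extrudes chromatin loops, and in this way it helps to set the borders of chromatin domains and to link promoters with distant enhancers. Fetal lung shortly before birth is a mixture of airway and alveolar epithelium, mesenchyme, endothelium and blood cells, and a ChIP signal from it is the sum over these cells.

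The sequences at the sites named by rule show what the 2 motifs look like in these data. Each run is 49 bases of GRCm38, 5′ to 3′ on the strand of the core motif, and capitals mark the 19 bases scored as the core motif and, where 1 was called, the 9 bases matched to the upstream motif TGCAGTNCC. The first 4 are the wild-type-only regions of highest summit pileup (the number of reads stacked at the summit), shown because they are the strongest sites without a mutant counterpart.
Intergenic site, chr4:8666837-8666885, minus strand: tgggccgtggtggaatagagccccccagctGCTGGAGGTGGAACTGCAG
Iqcf3 intron, chr9:106531990-106532038, plus strand: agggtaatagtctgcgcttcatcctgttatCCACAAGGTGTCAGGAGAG
Lmo3 intron, chr6:138477743-138477791, plus strand: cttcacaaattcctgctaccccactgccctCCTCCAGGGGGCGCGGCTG
Rasl2-9 promoter, chr7:5125962-5126010, minus strand: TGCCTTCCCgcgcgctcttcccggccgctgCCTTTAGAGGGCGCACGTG

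The next 4 are shared regions outside the same chromosomes, with at least 60 reads in the higher list. Of those with an upstream motif of at most 1 mismatch, they had the lowest mutant-to-wild-type pileup ratio. They are shown for these low ratios. The upstream match ended 8 bp before the core in each of them, as in 79.1% of wild-type core-motif regions with at most 1 mismatch.
Exoc1 intron, chr5:76565533-76565581, minus strand: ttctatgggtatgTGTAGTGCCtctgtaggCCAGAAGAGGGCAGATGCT
Notch3 coding exon, chr17:32143339-32143387, plus strand: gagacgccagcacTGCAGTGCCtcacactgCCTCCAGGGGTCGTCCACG
Gm33533 promoter, chr1:36744780-36744828, minus strand: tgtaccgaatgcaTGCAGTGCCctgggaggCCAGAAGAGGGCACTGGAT
Tiam2 intron, chr17:3451147-3451195, plus strand: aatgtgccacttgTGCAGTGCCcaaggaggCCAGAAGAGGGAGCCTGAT

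The last 4 are the mutant-only regions of highest summit pileup among those with a core motif and outside the same chromosomes, shown as the counterpart of the first set.
Intergenic site near Ankrd52, chr10:128374532-128374580, plus strand: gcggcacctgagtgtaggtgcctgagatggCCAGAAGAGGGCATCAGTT
Intergenic site, chr6:16978290-16978338, minus strand: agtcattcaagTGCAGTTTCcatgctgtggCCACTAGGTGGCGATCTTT
Usp7 intron, chr16:8771237-8771285, plus strand: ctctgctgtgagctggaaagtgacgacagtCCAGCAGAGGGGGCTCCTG
Stau2 intron, chr1:16305080-16305128, minus strand: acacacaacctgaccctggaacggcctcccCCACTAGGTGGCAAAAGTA

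Among the wild-type-only sites, 1 of 4 had an upstream match, and that match, with 2 mismatches, ended 21 bp before the core motif. Among the mutant-only sites, 1 of 4 had an upstream match, with 1 mismatch and a gap of 10 bp. Over all core-motif regions, the upstream motif was called in 33.5% of wild-type-only and 17.7% of mutant-only regions. The sites shown here were picked by pileup, so their motifs are described and not tested.

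The genome-wide background of the 2 lists was similar, but their local background was not. The genome-wide background recovered from the peaks was 1.53 reads in wild-type lung and 1.42 in mutant lung. The local background (the reads expected at a summit from the control) had a median of 2.38 times the genome background in wild-type lung, against 1.05 to 1.18 times in the other 5 lists. In wild-type lung it rose with the region itself, from a median of 1.02 times in the decile of lowest pileup to 8.50 times in the decile of highest pileup, while in mutant lung the corresponding medians were 1.00 and 1.14 times. A raised background makes a wild-type region harder to call, and which input served as control is not stated, so the part of this difference in the results below was not tested. For that reason pileup, and not the authors' fold enrichment, is used for strength.

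Many wild-type lung regions had no mutant counterpart, and few mutant regions lacked a wild-type one. Of the wild-type regions, 14648 (33.0%) had no mutant overlap, and 29738 were retained, or 67.0% (95% Wilson interval 66.6 to 67.4%). Of the mutant regions, 2962 (9.11%) had no wild-type overlap, and 29536 were shared, or 90.9% (90.6 to 91.2%). There were thus 4.95 wild-type-only regions for each mutant-only region, and the mutant list was 0.732 times as long as the wild-type list. Where regions were shared they lay at the same positions. In 29062 pairs in which each region met a single partner, the summits were a median of 6 bp apart, and 89.1% of them were within 20 bp. The median width was 369 bp on the wild-type side and 382 bp on the mutant side. Cutting both lists to equal length by −log10 q brought the shares together, at 81.1% of wild-type and 80.8% of mutant regions, which is the largest change that any setting made to the mutant share.

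Regions without a counterpart were mostly weak, in both lists. The median summit pileup was 22 reads in wild-type-only regions and 92 reads on the wild-type side of shared regions. In mutant-only regions it was 13 reads, against 53 reads on the mutant side of shared regions. The middle 50% of wild-type-only regions ran from 14 to 35 reads and that of shared wild-type regions from 46 to 150 reads, so these ranges did not meet. The retained share rose through every decile of wild-type pileup, from 18.7% (17.5 to 19.8%) to 99.9% (99.8 to 100%). In the fifth decile, between 39 and 55 reads, it was 66.9%, which is close to the share over all regions. The mutant list reached full overlap earlier. Of mutant regions, 51.3% of the lowest decile had a wild-type overlap, 97.6% of the decile between 34 and 47 reads, and 100% of each of the 4 highest deciles. Loss of strong regions was nevertheless measurable, since 272 of 14144 wild-type regions with at least 100 reads had no mutant overlap, or 1.92% (1.71 to 2.16%), and 3 of 3017 with at least 200 reads. No mutant-only region had 100 reads or more among 8333 mutant regions of that pileup, and 8 had 50 or more.

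**Figure D1:**
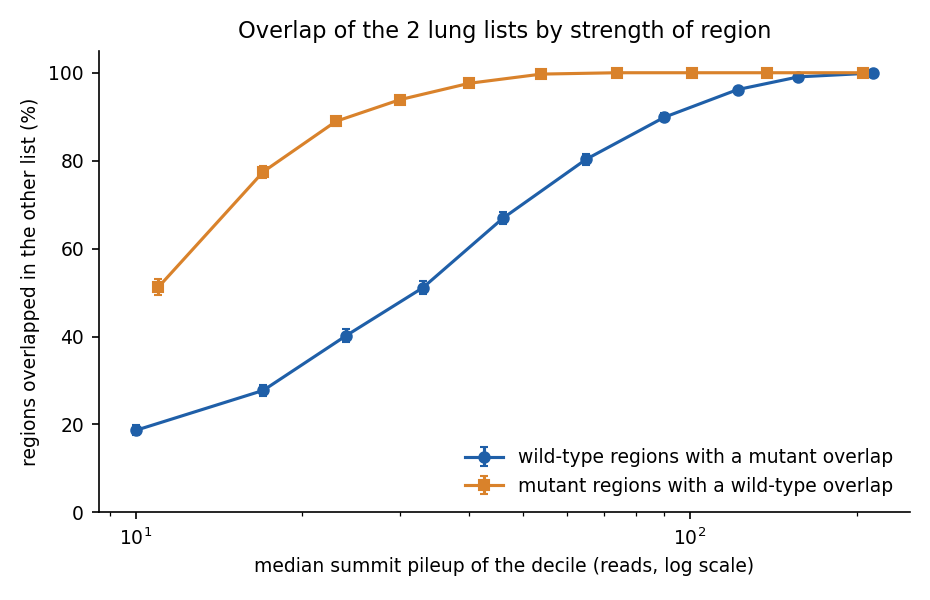
Share of lung regions with an overlap in the other lung list (y axis, %) against the median summit pileup of each decile (x axis, reads, log scale), with 95% Wilson intervals. Wild-type regions (circles) rise from 18.7% to 99.9% and mutant regions (squares) from 51.3% to 100%, and at equal pileup the mutant regions lie higher until both reach the top.

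The 4 wild-type-only sites named above were listed in wild-type brain and wild-type heart too. The intergenic site on chromosome 4 had 225 reads in wild-type lung, and it was listed in wild-type brain with 58 reads, in wild-type heart with 49 and in mutant brain with 21. The site in an intron of Iqcf3 had 215 reads in wild-type lung, 122 in wild-type brain, 40 in wild-type heart and 28 in mutant brain. At Lmo3, which encodes a LIM-domain transcription cofactor, the intronic site had 213 reads in wild-type lung, 75 in wild-type brain, 49 in wild-type heart and 32 in mutant brain. All 3 were therefore listed in the mutant brain and missing from the mutant lung and mutant heart. The mutant heart list was short, with 11515 regions against 38390 in mutant brain, and it held only 38.4% of shared lung regions. The site 22 bp from a start site of Rasl2-9 had 178 reads in wild-type lung, 78 in wild-type brain and 33 in wild-type heart, and no mutant list held it. The local background at these sites in wild-type lung was between 4.93 and 6.12 times the genome background. A region missing from a list may still hold reads below the caller's threshold, and read-level signal was not used here.

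The core motif was common in every class of lung region. It was called in 77.2% of wild-type-only regions (76.5 to 77.8%) and in 92.1% of shared wild-type regions (91.8 to 92.4%), a difference of -14.9 points (-15.7 to -14.2). It was called in 69.1% of mutant-only regions and in 92.2% of shared mutant regions, a difference of -23.1 points (-24.8 to -21.4). Windows 1100 bp from the same summits held a match in 8.29% to 9.42% of cases. Most of the first difference went with strength, and within deciles of pileup it averaged -3.34 points. The quality of the match also went with retention. In the quintile of core-motif regions with the lowest motif score, 55.4% were retained (54.3 to 56.5%), and in the quintile with the highest score, 87.6% were retained (86.8 to 88.3%). The median pileup of these 2 groups was 35 and 124 reads. Mutant-only sites had the lowest median score, at 13.3 bits, beside 13.8 bits at wild-type-only sites and 16.3 bits at shared sites.

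Whether loss in the mutant lung went with the upstream motif was then asked among the 38681 wild-type regions with a core motif. The share retained was lower where the upstream motif was present. Of 10653 regions with an upstream match of at most 2 mismatches, 64.4% were retained (63.5 to 65.3%), and of 28028 without one, 73.2% were retained (72.7 to 73.7%), a difference of -8.77 points (95% Newcombe interval -9.82 to -7.72). As background, the same consensus was searched in the mirrored window 3′ of the core motif, where the difference was -2.72 points (-4.07 to -1.40). Retention followed the number of mismatches. It was 49.2% (46.9 to 51.4%) with 0 mismatches, 60.4% (58.5 to 62.2%) with 1, 70.8% (69.7 to 72.0%) with 2, 70.9% with 3 and 76.0% (75.3 to 76.8%) with 4 or more. The median pileup was 37 reads with 0 mismatches and between 64 and 79.5 reads in the other classes. All wild-type regions of 28 to 39 reads, with or without either motif, were retained in 51.1% of cases. Among core-motif regions of 33 to 46 reads, 64.8% of those without the upstream motif were retained and 49.9% of those with it. In the mirrored window the range was narrower, from 63.6% with 0 mismatches, on 22 regions, to 72.7% with 3. Seen from the classes, the upstream motif was called in 33.5% of wild-type-only, 25.1% of shared and 17.7% of mutant-only regions with a core motif, against 14.9%, 13.4% and 13.5% in the mirrored window. Mutant-only regions thus held it less often than shared mutant regions, with a difference of -7.21 points (-8.88 to -5.42), and the mirrored match differed by 0.161 points (-1.31 to 1.76).

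**Figure D2:**
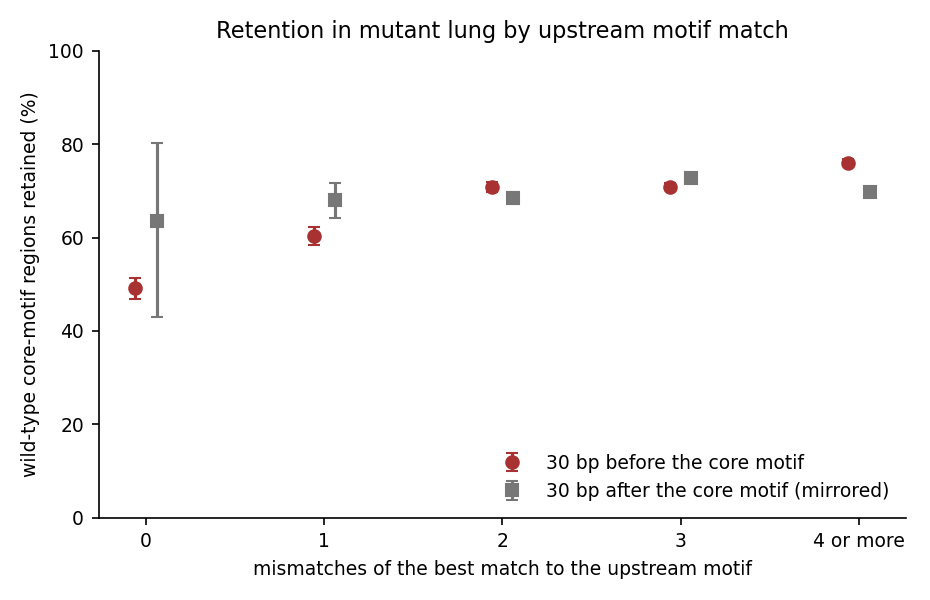
Share of wild-type core-motif regions retained in mutant lung (y axis, %) by the number of mismatches of the best match to the upstream motif (x axis), for the 30 bp before the core motif (circles) and the mirrored 30 bp after it (squares), with 95% Wilson intervals. On the upstream side the share falls from 76.0% to 49.2% as the match improves, and in the mirrored window it stays between 63.6% and 72.7%.

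Retention also differed with the spacing of the motifs. Of the 4551 core-motif regions with at most 1 mismatch, 79.1% had the upstream motif ending 8 bp before the core motif, and 51.8% of these were retained (50.1 to 53.4%). With a gap of 9 bp, 71.5% of 534 regions were retained (67.6 to 75.2%). For gaps of 7 to 9 bp together, 54.5% were retained, against 71.5% of the 358 regions with another gap, a difference of -17.0 points (-21.7 to -11.9). The upstream difference was present on both strands, at -8.73 points for core motifs on the plus strand and -8.80 points on the minus strand. It was -4.13 points (-6.81 to -1.55) at promoters and -9.10 points (-10.2 to -7.97) elsewhere. Among 18729 core-motif regions listed in all 3 wild-type organs it was -4.31 points (-5.20 to -3.46), and among 9333 listed in wild-type lung alone it was -11.8 points (-13.8 to -9.73). By strength it was widest in the middle, near -14.7 points in the second decile of pileup and -14.6 points in the sixth, and it closed to 0.114 points (-0.204 to 0.335) in the highest decile, where nearly every region was retained. Averaged within deciles of pileup the difference was -9.60 points.

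Repeat-masked sequence moved with this result. Of wild-type regions with at least 50% of the bases around the summit in lower case in the reference, which marks interspersed and simple repeats, 40.0% were retained (38.8 to 41.2%), against 71.8% of the others (71.3 to 72.2%). These masked regions made up 27.4% of wild-type-only and 8.98% of shared wild-type regions, and 96.0% of them held a core motif. A close upstream match, with 0 or 1 mismatch, was found in 33.4% of masked and 7.47% of other core-motif regions. Among regions with 0 mismatches 66.1% were masked. In the less masked regions the upstream difference was -4.73 points (-5.85 to -3.62). In the masked regions it was 1.34 points (-1.08 to 3.75), so the sign turned and the interval held 0. The masked regions with the upstream motif had a median pileup of 30 reads and those without it 24 reads. Within deciles of pileup the difference was -7.16 points in masked and -9.21 points in less masked regions. Both the match and the masked share thus vary along the mismatch series above.

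Pileup was then compared within shared regions. These had to be called in both lists, so a weak wild-type region with a low ratio could not enter, and the median log2 ratio was -0.18 in the lowest and -0.58 in the second quintile of wild-type pileup. For each of 26823 uniquely paired regions with a core motif, the summit pileup was divided by the genome background of its library and the mutant was set against the wild type. The median log2 ratio was -0.36, the middle 50% ran from -0.88 to 0.00, and 20.8% of pairs were below -1 while 0.406% were above 1. Since the spike-in does not enter a peak list, this ratio has no correction for a global change. With the upstream motif the median was -0.63, and without it -0.29, a difference of -0.34, whereas a match in the mirrored window made a difference of -0.05. The median fell in steps with the match, from -0.24 with 4 or more mismatches through -0.33, -0.51 and -0.79 to -0.90 with 0 mismatches. Pairs with at most 1 mismatch and a gap of 7 to 9 bp had a median of -0.89, and those with another gap -0.31. Here the masked and the less masked regions showed the same sign, with differences of -0.28 and -0.32. The difference was also present in every quintile of wild-type pileup. In the middle quintile the medians were -0.97 with and -0.47 without the upstream motif, and in the highest quintile -0.36 and -0.13. In pairs whose local background was within 1.2 times the genome background in both lists, the upstream difference was -0.34 as well.

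**Figure D3:**
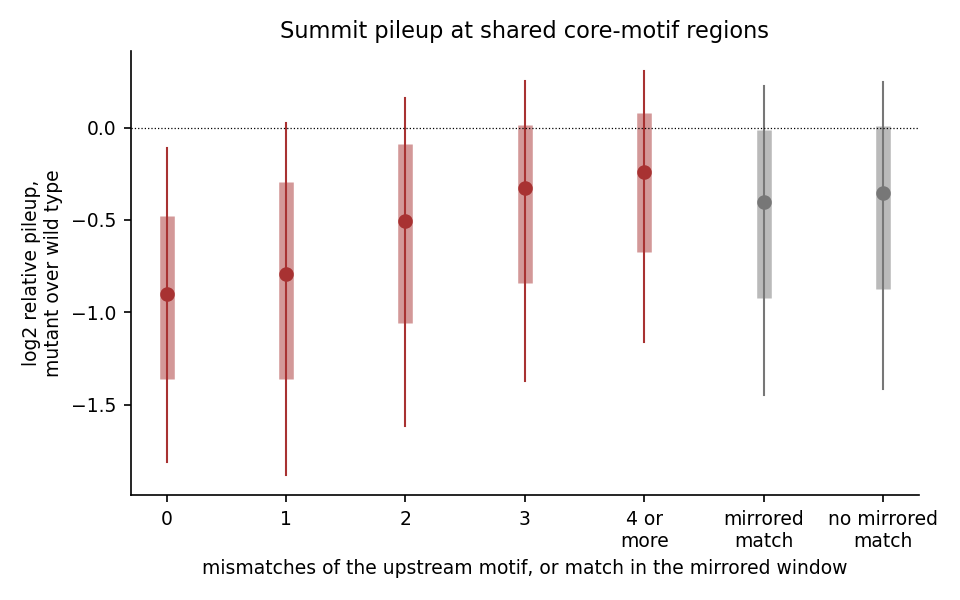
Log2 ratio of relative summit pileup, mutant over wild type (y axis), at shared lung regions with a core motif, by mismatches of the upstream motif (red) and by a match in the mirrored window (grey). Points are medians, thick bars the middle 50% and thin lines the 10th to 90th percentiles. The medians run from -0.90 with 0 mismatches to -0.24 with 4 or more.

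The 4 shared sites with an upstream motif and the lowest ratio had between 11 and 26 reads left in mutant lung. The site in an intron of Exoc1, an exocyst subunit, had 316 reads in wild-type and 26 in mutant lung, a log2 ratio of -3.50. The site in a coding exon of Notch3, a receptor of vascular smooth muscle and pericytes, had 225 and 19 reads, a log2 ratio of -3.47. The site 4 bp from a start site of Gm33533 had 129 and 11 reads, and the site in an intron of Tiam2, which activates the GTPase Rac, had 125 and 11 reads. Their log2 ratios were -3.45 and -3.41. All 4 were listed in mutant brain as well, with 22, 15, 36 and 33 reads in the same order. None was in the short mutant heart list, which held 38.4% of shared lung regions. The local background of these sites was between 4.25 and 13.4 times the genome background in wild-type lung and 1.00 times in mutant lung. Among these pairs the opposite end of the range was nearer to 0. The 3 highest ratios were 1.95, 1.69 and 1.55 on the log2 scale, at an intergenic site on chromosome 6 with 20 and 72 reads in wild-type and mutant lung, at another on the same chromosome with 34 and 102 reads, and at a site in Ushbp1 with 23 and 63 reads. The site in Ushbp1 was the only 1 of these with an upstream match, which had 2 mismatches. These 7 sites were chosen for their ratios, so the ratios are a description.

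Mutant-only regions lay at promoters more often than shared ones. Counting a summit up to 1 kb from a start site of transcription as a promoter region, promoters made up 37.7% of mutant-only regions (36.0 to 39.5%) and 20.8% of shared mutant regions (20.4 to 21.3%), a difference of 16.9 points (15.1 to 18.7). Within deciles of pileup the difference averaged 3.49 points. In the wild-type list the classes hardly differed, with 20.3% of wild-type-only and 21.04% of shared regions at promoters. Read the other way, 10.7% of mutant promoter regions with a core motif and 31.5% of those without one had no wild-type overlap, against 5.27% and 23.6% of intergenic regions. Of wild-type promoter regions, 76.1% with a core motif and 46.3% without one were retained, against 70.2% and 40.5% of intergenic regions. Introns held 42.9% of wild-type-only and 35.5% of mutant-only regions. The mean GC content was 55.0% in mutant-only regions and between 50.5% and 51.6% in the other classes. At shared regions with a core motif the median log2 pileup ratio was -0.08 at promoters and -0.43 in introns. Without a correction for a global change, these values show that the 2 kinds of site differ and not which of them changed. The distance to a start site did not order the retained share up to 100 kb, which ran from 66.5% to 68.2%, but beyond 100 kb it was 54.6% (51.6 to 57.6%) of 1044 regions.

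Counted by gene, 7265 protein-coding genes had a wild-type promoter region and 6013 had a mutant one, and 5240 had both. All promoter regions were wild-type-only, with no mutant promoter region, in 2005 genes (27.6%). All were mutant-only, with no wild-type promoter region, in 761 genes (12.7%). The following genes were chosen after their values were seen, from the 10 of highest pileup in each group, for their known roles. Among the former were Lamb3, a chain of the laminin of epithelial basement membranes, with 135 reads in wild-type lung, and Chrdl2, a secreted antagonist of bone morphogenetic proteins, with 160 reads. Among the latter were Pgk1, a glycolytic enzyme, with 39 reads in mutant lung, and 2 homeobox genes, Prrx2 with 45 reads and Irx1 with 36 reads. These examples were taken from the highest pileups, so their depths are a description. Over all wild-type-only regions the median was 22 reads, and over all mutant-only regions 13 reads.

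The 4 mutant-only sites with a core motif that had the highest pileup held between 56 and 63 reads in mutant lung. The site 2544 bp from a start site of Ankrd52 had 63 reads in mutant lung and 31 in mutant brain, and no wild-type list held it. The intergenic site on chromosome 6 had 61 reads in mutant lung, and it was listed in wild-type brain with 34, in mutant brain with 72 and in wild-type heart with 12 reads. In Usp7, which encodes a deubiquitinase, the intronic site had 57 reads in mutant lung and 38 in mutant brain. The site in an intron of Stau2, an RNA-binding protein, had 56 reads in mutant lung, 21 in wild-type brain and 17 in mutant brain. All 4 were thus listed in mutant brain, and 2 of them in wild-type brain.

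Losses were spread over the genome. The retained share lay between 64.6% on chromosome 14 and 69.4% on chromosome 19 among the 19 autosomes, and it was 62.5% on chromosome X. The median wild-type pileup was 45 reads on chromosome X and between 49 and 60 reads on the autosomes. The study's methods do not give the sex of the embryos used for ChIP. A region whose preceding neighbour was retained was itself retained in 68.1% of cases (67.6 to 68.6%), and one whose neighbour was lost in 64.7% (64.0 to 65.5%). Over the 1195 windows of 1 Mb with at least 15 wild-type regions, the median retained share was 68.1%, and the 5th and 95th percentiles were 50.8% and 82.4%. Among the 5 windows of lowest share were chr6:41000001-42000000, with 5 of 18 regions retained, and chr14:53000001-54000000, with 6 of 20. These 2 windows, picked for their values, hold gene segments of the T-cell receptor beta and alpha loci.

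Regions lost in the lung were listed in the other organs less often than retained ones. A mutant brain or mutant heart region overlapped 31.0% of wild-type-only lung regions (30.3 to 31.8%) and 87.5% of retained ones (87.1 to 87.9%), a difference of -56.5 points (-57.4 to -55.7), and -38.6 points within deciles of pileup. By list, mutant brain held 30.8% of wild-type-only lung regions and mutant heart 0.451%. Of wild-type-only regions, 48.3% were in none of the 4 other lists, against 6.78% of shared ones. Loss also coincided between organs. Of lung regions that were listed in wild-type brain too, 50.6% of those lost in lung (49.3 to 51.9%) and 93.9% of those retained in lung (93.6 to 94.2%) were listed in mutant brain. Strength was not held equal in this comparison. For wild-type heart and mutant heart the shares were 1.84% (1.29 to 2.62%) and 56.0% (55.2 to 56.7%). Strength was not held equal there either, and the mutant heart list was the shortest of all, with 11515 regions. Mutant-only lung regions were found in mutant brain in 43.5% of cases (41.7 to 45.3%) and in wild-type brain in 22.6% (21.1 to 24.2%), and 51.9% of them were in none of the 4 lists.

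**Figure D4:**
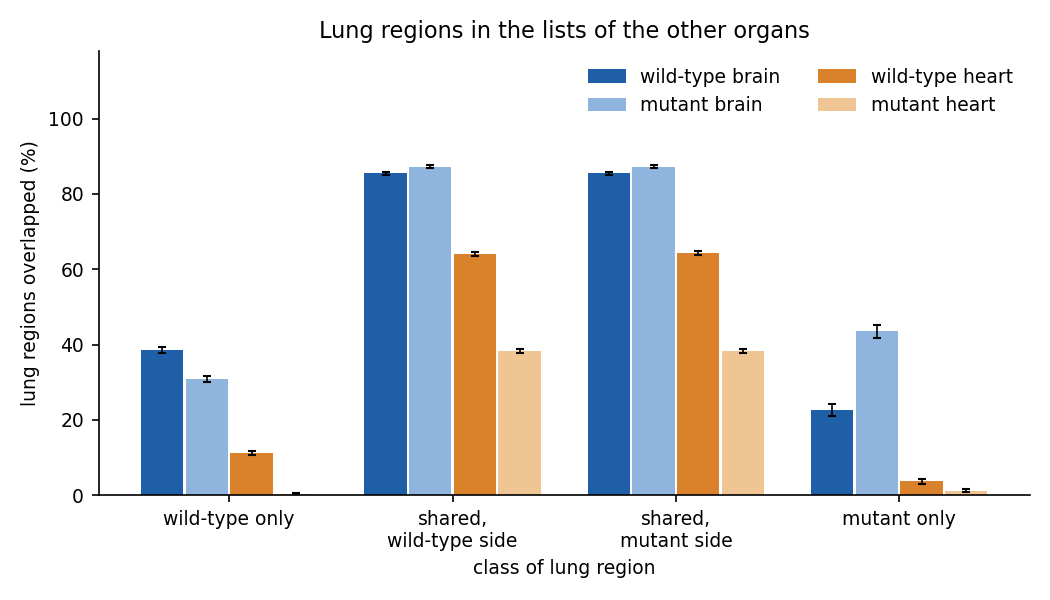
Share of lung regions in each class (x axis) that overlap a region in the wild-type or mutant list of brain or heart (y axis, %), with 95% Wilson intervals. Shared lung regions are in the brain lists in 85.5% to 87.2% of cases, wild-type-only regions in 38.6% and 30.8%, and mutant-only regions in 22.6% and 43.5%.

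The organ label of the mutant list was checked with regions that a single wild-type organ held. Of 12414 wild-type regions found in lung alone, 30.1% were listed in mutant lung (29.3 to 30.9%), 26.5% in mutant brain (25.8 to 27.3%) and 0.661% in mutant heart. Of 4845 found in brain alone, 53.2% were in mutant brain and 12.7% in mutant lung. Of 344 found in heart alone, 2.03% were in mutant heart, 16.9% in mutant lung and 21.2% in mutant brain. The share was highest in the matching mutant list for brain and, by a narrow margin, for lung, but not for heart, so this check says little about the organ label of the mutant lung list.

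Genes of lung development and of other organs were described as loci, since a CTCF peak gives binding and not expression. In this account a gene lost a region where the region was wild-type-only, and gained one where it was mutant-only. Weak regions were seldom retained anywhere. Over the whole wild-type list, regions of 7 to 14 reads were retained in 18.7% of cases and those of 14 to 20 reads in 27.8%. Of all wild-type regions inside or within 10 kb of protein-coding genes, 32.2% were wild-type-only. Over the 130 genes of 12 lists it was 124 of 399 regions, or 31.1% (26.7 to 35.8%), which is near that background. The lists ran from 0 of 7 regions for red blood cell genes and 3 of 19 for alveolar type 1 genes to 10 of 21 for endothelial genes (28.3 to 67.6%). Each interval held 32.2%. Of mutant regions within the same distance, 2427 of 25048 were mutant-only near protein-coding genes, and 37 of 306 over the 12 lists. By list this ran from 0 of 24 for genes of neurons to 6 of 17 for endothelial genes, and it was not tested. The signalling list counts 35 wild-type-only of 99 regions for Fgfr2, the receptor of mesenchymal FGF10, but its annotated gene model runs over 2.96 Mb and takes in many neighbours. Without it the signalling list had 20 wild-type-only of 55 regions.

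**Figure D5:**
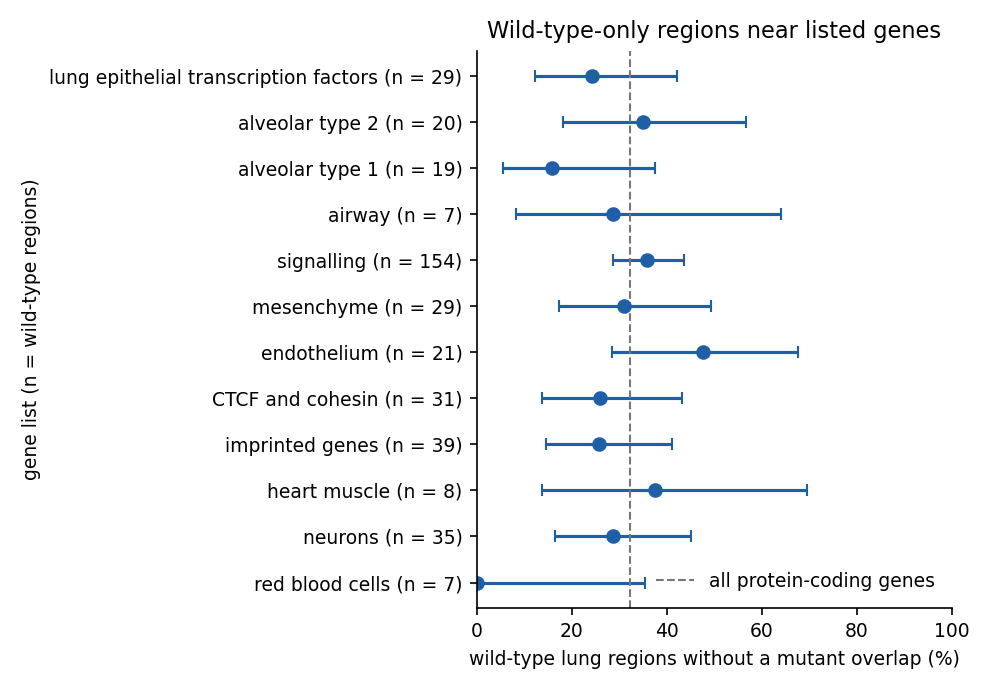
Share of wild-type lung regions without a mutant overlap (x axis, %) inside or within 10 kb of the genes of each list (y axis), with 95% Wilson intervals, beside the share over all protein-coding genes (dashed line, 32.2%). Each interval holds the dashed line.

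Among epithelial transcription factors, 7 of 29 wild-type regions had no mutant overlap. At Nkx2-1, the master regulator of lung identity, which was named outside the rule for this role, 2 of 3 regions were retained, a region of 30 reads was lost, and the highest pileup was 172 reads in wild-type and 87 in mutant lung. Foxa1, a pioneer factor of endoderm, lost 1 of 3 regions, of 51 reads and outside the promoter, and its promoter region was retained with 79 and 82 reads. Grhl2, which maintains epithelial junctions, lost 2 of 7 regions and gained 1, and Elf3 lost 1 of 3, a promoter region of 9 reads, and kept another promoter region of 194 and 161 reads. Etv5, a target of FGF signalling in the distal tip, lost 2 of 3, among them its promoter region of 12 reads. Id2, a marker of distal tip progenitors, gained a mutant-only promoter region of 16 reads beside retained regions nearby with up to 260 and 306 reads.

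In the alveolar type 2 list 7 of 20 wild-type regions were lost, and in the alveolar type 1 list 3 of 19. Napsa, of the type 2 list, which encodes the aspartic protease that processes surfactant protein B, lost all 4 of its regions, of 8 to 19 reads. Most wild-type regions of that pileup were lost over the whole list too. At Abca3, the lipid transporter of lamellar bodies, 4 of 5 regions were retained, its promoter region with 305 and 229 reads, and the lost one had 12 reads. Lpcat1, an enzyme of surfactant phospholipid synthesis, lost 1 of 4 regions, the promoter region of 33 reads. Slc34a2, a phosphate transporter, lost its only region, of 25 reads, and had a mutant-only promoter region of 8 reads. In the alveolar type 1 list, the only region at Hopx, a homeodomain protein of these cells, had 115 reads in wild-type lung and no mutant overlap. Ager, which encodes the receptor RAGE, lost its only region of 14 reads, and Rtkn2 lost 1 of 7, of 10 reads, and gained 1 of 18 reads. In the airway list, Krt5, the keratin of basal cells, lost its only region, of 39 reads.

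Of the 20 signalling genes, 13 had a wild-type promoter region, and 5 of these had a wild-type-only one. In 4 of the 13 no promoter region was left in mutant lung, beside the 27.6% over all protein-coding genes. The wild-type-only promoter regions lay at Rara, a retinoic acid receptor, with 9 reads, at Fgf9, a ligand of the mesothelium and epithelium, with 8, at Wnt5a with 11, at Tgfbr2, a receptor of TGF-beta, with 19, and at Spry2, a feedback inhibitor of FGF signalling, with 21. At Wnt5a and Spry2 the strongest nearby regions were retained, with 228 and 226 reads and with 301 and 312 reads in wild-type and mutant lung. Among the promoter regions retained, those of similar pileup, picked out after their values were seen, lay at Fgfr2 with 13 and 9 reads, at Gli3 with 9 and 11, at Notch2 with 10 and 12 and at Tgfb2 with 22 and 19. Tgfbr2 lost 3 of 4 regions in all and Spry2 lost 2 of 4. Ptch1, the Hedgehog receptor, had 2 wild-type regions, both wild-type-only, and 3 mutant-only regions, 1 of them at its promoter with 14 reads. Gli1, a Hedgehog target, lost 3 of 6 regions but kept a promoter region of 178 and 104 reads. Rara kept 9 of its 10 regions and gained 2, 1 of them a promoter region of 10 reads. Its strongest wild-type region had 193 reads in wild-type and 97 in mutant lung. Its strongest mutant region, at another position, had 174 and 187 reads. Rarb, another retinoic acid receptor, lost 1 of 2 regions, of 18 reads and outside the promoter, and gained a promoter region of 13 reads.

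In the mesenchymal list, Foxf1, the forkhead factor of lung mesenchyme, lost 2 promoter regions of at most 9 reads and gained 1 of 10 reads, while its strongest region had 205 and 194 reads. Pdgfra, the receptor of myofibroblast precursors, lost 2 of 6 regions, kept a promoter region of 197 and 226 reads and gained 2 regions, 1 of them at a promoter. Eln, which encodes elastin, lost 2 of 4 regions and gained 1, and the only region at Meox2, of 48 reads, was wild-type-only. In the endothelial list, Flt1, a VEGF receptor, lost 4 of 5 regions and had 3 mutant-only regions, Pecam1 lost 2 of 4 and gained 1, Cdh5 lost 1 of 3 and gained 1, and Aplnr lost its only region of 8 reads.

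At Ctcf and the cohesin genes 8 of 31 regions were wild-type-only, or 25.8% (13.7 to 43.2%), near the 32.2% over all protein-coding genes. Ctcf itself lost 1 of 4 regions, of 74 reads and outside the promoter, and its promoter region was retained with 147 and 134 reads. Stag1, a cohesin subunit, kept a promoter region of 390 and 437 reads and lost 2 of 5 regions, while Smc1a had a mutant-only promoter region of 17 reads. Mau2, a cohesin loader, lost its only region of 9 reads, and Nipbl, its partner, lost 1 of 5. Among imprinted genes 10 of 39 regions were wild-type-only. Grb10, a growth inhibitor, lost 4 of 7, among them its promoter region of 22 reads, and Kcnq1 lost 2 of 9. Mest lost 1 of 2, a promoter region of 17 reads, and kept another promoter region of 110 and 97 reads, and Nnat, with a highest pileup of 176 and 174 reads, lost 1 of 2 regions and gained 1. Genes of other organs gave 3 of 8 regions for heart muscle, 1 of 2 at Myh6 and the only one at Myh7 and at Hand2, which also gained 1. Genes of neurons gave 10 of 35, with 3 of 15 at Rbfox3, 3 of 6 at Slc17a7, 1 of 4 at Gad1 and 1 of 2 at Gad2.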

How the data were processed

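Chromatin of whole tissue was cross-linked, sonicated and mixed with HEK293T spike-in chromatin. Per the methods of the study, the authors used Trim Galore, Bowtie2 with a combined mm10 and hg38 genome, and MACS2 on each library. The deposited score, a whole number that follows the q-value, played no part here. Fold enrichment was deposited as a ratio, summit pileup over local background, after adding 1 to both. As deposited by the authors, p-values and q-values are given as −log10. A whole-number pileup and its local background were solved from fold enrichment and p-value for 100% of lines.

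A core motif matrix of 19 columns was learned from 1952 sites under the 2000 wild-type brain peaks of highest pileup, and matches with p of 1e-04 or less within 100 bp of a summit were called. The upstream motif TGCAGTNCC was called with at most 2 mismatches within 30 bp 5′ of the core, on its strand. The recovery of pileups was tested on 20000 simulated peaks, of which 100% were recovered. Genes came from GENCODE M21 and sequence from GRCm38.

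Named sites were the 4 wild-type-only and 4 mutant-only core-motif regions of highest pileup, and the 4 lowest (with an upstream motif of at most 1 mismatch) and 3 highest pileup ratios among pairs with at least 60 reads in the higher list, without chromosomes 18 and Y. Named genes were, in each list, the 4 with the most wild-type-only regions (ties by symbol), plus all with a mutant-only promoter region or only wild-type-only ones, and a gene that the rule named is not reported here. Members and lists were chosen with earlier results of these data known. Shares have 95% Wilson and differences 95% Newcombe intervals. The settings varied were the q-value and pileup minimum, list length, the overlap rule (1 bp, reciprocal 50% or summits within 100 bp), chromosomes, motif thresholds and matrix, promoter distance (2 kb), gene distance (50 kb) and averaging within deciles of pileup. The work used samtools 1.23.1, matplotlib 3.10.9, scipy 1.17.1, pandas 2.3.3, numpy 2.4.6 and Python 3.11.15.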

Additional observations from a re-analysis of the deposited data

Results flagged for a closer look

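The log2 ratio of region numbers, mutant over wild type, was -0.45 in lung and 0.0914 in brain, so the only library pair of each organ moved in opposite directions. In heart it was -0.87, the same direction as in lung. This difference was not tested, since there was 1 library per organ and genotype. The local background of wild-type lung summits in the decile of highest pileup was 8.50 times the genome background, whereas the other 5 lists had 1.13 to 1.42 times. The input libraries were not analysed here, and where this background comes from was not tested.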

How the results depend on the processing

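Over 9 results, 41 alternatives were computed, of which 8 were chosen after seeing the data. A sign could turn only in the results that are differences, since a ratio of region numbers and a share cannot be negative. The value stayed inside the main interval in 12 and left it without a change of sign in 28. It turned its sign in 1, the upstream difference among masked regions (1.34 points). The cause was not tested. Keeping regions with −log10 q of 5 or more, the ratio of region numbers was 0.745, the retained share 69.7%, the shared mutant share 93.1% and the promoter difference 13.97 points. The ratio was 0.721 with at least 20 reads at the summit in both lists. The retained share was 77.2% with this minimum in the wild-type list alone, and the shared mutant share 97.5% with it in the mutant list alone. At equal list length the 2 shares were 81.1% and 80.8%, with reciprocal overlap of 50% they were 60.7% and 82.9%, and with summits within 100 bp 64.9% and 88.6%. Reciprocal overlap gave -7.70 points for the upstream motif and -51.5 points for the other organs. Wild-type regions with a local background within 1.2 times the genome background, which were also the weak ones, were retained in 29.6% of cases, with an upstream difference of -10.6 points. That difference was -16.9 points with at most 1 mismatch, -12.5 points for gaps of 7 to 9 bp and -4.73 points in less masked regions. The log2 pileup ratio differed by -0.51 with at most 1 mismatch, -0.31 with a core motif p of 1e-05 and -0.32 in less masked regions. The core motif difference was -24.5 points with p of 1e-05 and -3.34 points within deciles of pileup. Within deciles, the promoter difference was 3.49 points and that for the other organs -38.6 points, which was -46.6 points when wild-type lists were used. No paired analysis was possible because each genotype had 1 library and no replicate numbers. With 1 library per genotype, weak regions near the calling threshold limit what absence from a list can show.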
